A study of Drosophila melanogaster with 7 samples.

Results

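The genes described here encode the core of the *Drosophila* centromere and kinetochore: *cid*, *cal1*, *Cenp-C*, *Mis12*, *Kmn1*, *Spc105R*, *Ndc80* and *Nuf2*. They were chosen by name, as the entries of the count table whose FlyBase identifier carries one of these symbols, and make up 8 of 17699 entries. Transcripts were counted by sequencing of total RNA from hand-staged embryos at stage 5, when the zygotic genome is activated, in 3 libraries of HP1-KD embryos and 4 libraries of control embryos. HP1-KD embryos came from mothers that carried a Gal4 driver and a hairpin of the TRiP collection (Bloomington stock 33400), which deplete HP1 in the female germ line. These mothers were mated to their siblings, and the depletion was partial. The paper reports that only a small minority of embryos with the partial knockdown developed as far as zygotic genome activation. The part of that selection in the values below was not tested. Control embryos came from Bloomington stock 36303, and the labels do not state whether that stock carried the driver. The tissue label of the HP1-KD libraries names WT embryos, while their titles and genotype name the knockdown, and titles and genotype were followed. Neither the number of embryos in a library nor separate collections are stated, so p-values measure the spread between these libraries, which may be technical.

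In flies, the histone H3 variant CID marks the centromere, CAL1 is the chaperone that places it there, and CENP-C joins CID chromatin to the kinetochore. The outer kinetochore is built from the KMN network, made of Spc105R, the Mis12 complex and the Ndc80 complex, which holds the ends of spindle microtubules. Early fly embryos divide as a syncytium with rapid nuclear cycles that run on RNA and protein laid down by the mother, before zygotic transcription takes over. HP1 binds the heterochromatin that flanks centromeres.

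All 8 genes are annotated as protein-coding in dm6. On 2R, *cid* (FBgn0040477) spans 13485617 to 13486631, plus strand. On 3R, *cal1* (FBgn0038478) spans 17088280 to 17091938 and *Cenp-C* (FBgn0266916) spans 8564105 to 8569248, both on the plus strand. On 3L, *Mis12* (FBgn0035725) spans 6968035 to 6969048 on the minus strand and *Spc105R* (FBgn0037025) spans 20800410 to 20806853 on the plus strand. On X, *Kmn1* (FBgn0027259) spans 11571383 to 11572442 and *Ndc80* (FBgn0030500) spans 13609671 to 13612062, both on the minus strand. *Nuf2* (FBgn0031886) lies on 2L from 7064431 to 7065837 on the minus strand. Exons of 3 of the 8 genes overlap exons of a gene on the opposite strand, which matters because the strand setting of the counting is not given in the sources used here. The overlap covers 11.3% of the exon length of *cal1* (with *cher*), 14.8% of *Kmn1* (with *CG11699*) and 2.87% of *Nuf2* (with *Sem1*). An annotated *pogo* transposable element lies opposite 18.6% of *Kmn1*, and whether these bases include those shared with *CG11699* was not checked.

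The libraries differed in composition. Ribosomal RNA genes took 80.7%, 37.3% and 79.1% of the counts in HP1-KD libraries 1, 2 and 3, against 15.3% to 47.2% in control libraries. Counts outside these genes were 3272009.5 to 5443432 in HP1-KD libraries and 7324415.5 to 11775952 in control libraries, so the HP1-KD values carry more counting error. A level of 3 counts, taken as the smallest that a library can show, was 0.276 to 0.463 CPM (counts relative to the scaled library total) in HP1-KD libraries and 0.129 to 0.209 CPM in control libraries, counting error only. Zygotic genes of the blastoderm (8 listed, 8 tested) and of cellularization (5 listed, 5 tested) were present, which fits the stage label. The blastoderm list summed to 470 to 605 CPM in HP1-KD libraries and 596 to 707 CPM in control libraries, and the cellularization list to 1490 to 2370 CPM in HP1-KD libraries and 2640 to 2990 CPM in control libraries. By edgeR 0 of these 13 genes passed an adjusted p of 0.05, against 8.59% of all genes tested. At an unadjusted p under 0.05 in that test 7 were lower in HP1-KD embryos, against 15.3% of all genes. None was higher, against 13.5%. DESeq2 called 3, against 18.6%, and limma-voom 2, against 6.99%. The median log2 fold change of HP1-KD over control was −0.617 for the blastoderm list, with 7 of 8 genes negative. It was −0.52 for the cellularization list, with 4 of 5 negative. A pair of libraries stood apart in their markers. HP1-KD library 1 held 316 CPM of *Yp1*, *Yp2* and *Yp3*, yolk protein genes listed as markers of adult fat body. The other HP1-KD libraries held 3.95 and 0.574 CPM, and control libraries 0.14 to 0.386 CPM. In HP1-KD library 1, 4 listed follicle cell genes, 0 of them tested, summed to 3.24 CPM. The other HP1-KD libraries held 0 CPM of these, and control libraries 0 to 0.0528 CPM. Control library 3 held 590 CPM of 8 maternally supplied genes, against 1860 to 2110 CPM in HP1-KD libraries and 1550 to 2330 CPM in the other control libraries. It also held 74.1 CPM of 5 later nervous system genes, against 6.33 to 16.2 CPM in HP1-KD libraries and 8.24 to 20.2 CPM in the other control libraries. Of these 5 genes, 1 passed the expression filter. The 4 listed later muscle genes summed to 0.172 CPM in control library 3. They summed to 0.2 to 0.279 CPM in the other control libraries and 0.143 to 1.23 CPM in HP1-KD libraries.

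The knockdown was visible in the transcript it targets. *Su(var)2-5*, which encodes HP1, had 1174, 1426 and 1187 normalized counts in HP1-KD libraries, against 2727, 3122, 3958 and 3315 in control libraries. Normalized counts are counts brought to a common library size. The HP1-KD mean was 38.5% of the control mean, with a log2 fold change of −1.38 ± 0.15 (SE) and an adjusted p of 0.00231 in edgeR's quasi-likelihood test. All log2 fold changes below are HP1-KD over control from the same test, with Benjamini-Hochberg adjustment over the 8008 genes tested.

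Among the 8 centromere and kinetochore genes, *Nuf2* alone passed an adjusted p of 0.05, and it was lower in HP1-KD embryos. Across all genes tested, 688 passed (8.59%), 296 of them higher and 392 lower in HP1-KD embryos (4.9% lower). With 8 genes, a count of 1 does not stand apart from that background. Under scaling to the raw library totals, 31 genes were higher and 1064 lower, and the median gene moved to −1.15, against −0.0287 with TMM scaling. Of the 8 genes, 6 had a negative log2 fold change, and their median was −0.19. All 3 HP1-KD libraries lay below all 4 control libraries for 2 of the 8 genes, *Kmn1* and *Nuf2*, as they did for 15.1% of all genes tested. None of the 8 had all HP1-KD libraries above the control libraries, which 15.2% of all genes did. No gene of the 8 was called higher by edgeR, DESeq2 or limma-voom, and none was higher at an unadjusted p under 0.05. In these whole embryos, fewer cells of a type and less RNA per cell cannot be told apart.

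**Figure D1:**
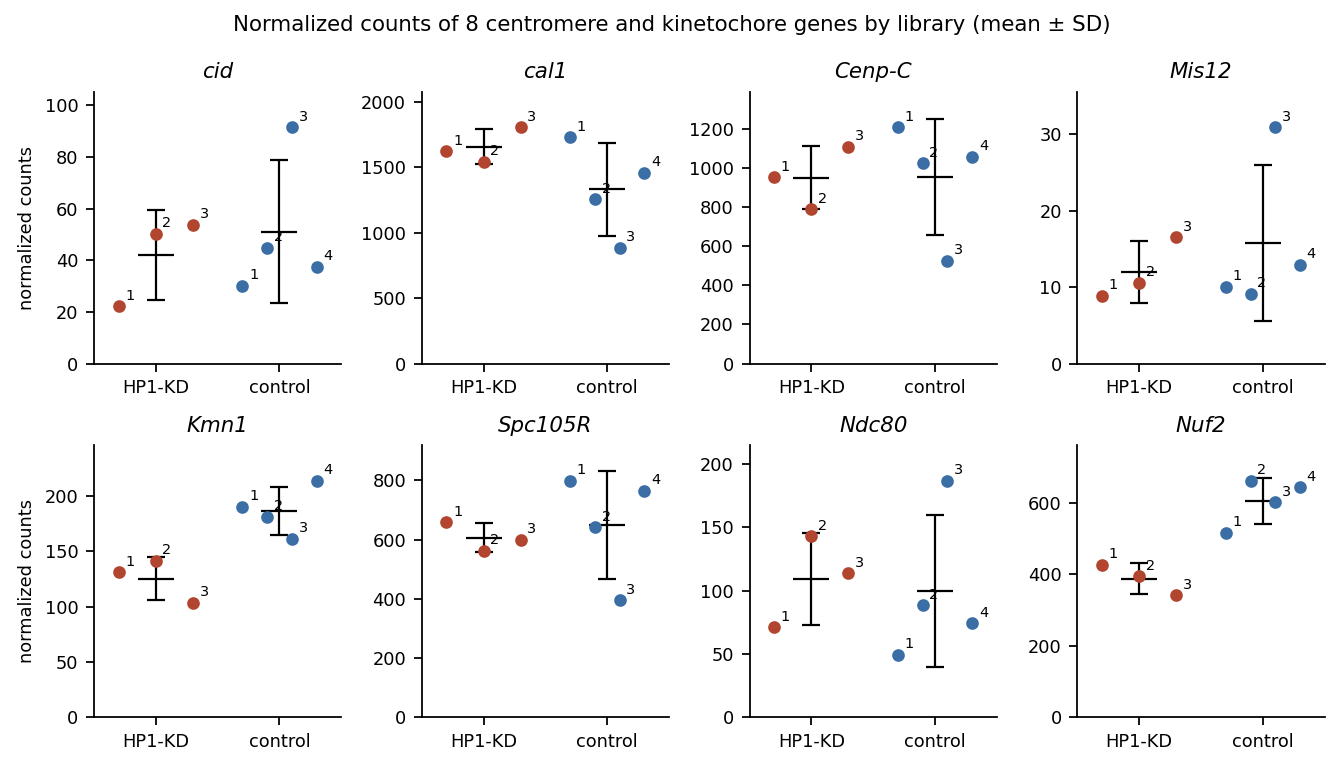
Normalized counts (vertical axes, linear from 0) of the 8 centromere and kinetochore genes in HP1-KD libraries 1 to 3 (left, red) and control libraries 1 to 4 (right, blue), with the library number beside each point and bars for mean ± SD. *Kmn1* and *Nuf2* are the 2 panels in which the groups do not overlap, and control library 3 is the highest control for *cid*, *Mis12* and *Ndc80* and the lowest for *cal1*, *Cenp-C* and *Spc105R*.

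Of the genes that make centromeric chromatin, none passed the test. *cid*, the centromeric histone, had 22.2, 50.3 and 53.8 normalized counts in HP1-KD libraries, against 30.2, 44.9, 91.6 and 37.5 in control libraries. These rest on 10 to 38 deposited counts in HP1-KD libraries and 30.5 to 147.5 in control libraries. HP1-KD library 1 was the lowest of the 7 and control library 3 the highest, and the groups overlapped. For *cid* the log2 fold change was −0.27 ± 0.48 (SE, adjusted p = 0.716, edgeR), and it was 0.17 without control library 3 and 0.044 without HP1-KD library 1.

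*cal1*, the loading factor of CID, had 1623, 1544 and 1807 normalized counts in HP1-KD libraries, against 1729, 1255, 883.6 and 1459 in control libraries. The HP1-KD libraries lay close together, with a coefficient of variation of 8.14%, against 26.7% in control libraries, and of the control libraries only library 1 reached their range. This gave a log2 fold change of 0.32 ± 0.21 (SE, adjusted p = 0.343, edgeR). It was 0.16 without control library 3 and 0.47 without control library 1. Scaling to the raw totals turned it to −0.80, below 0 with the median gene. The overlapping gene *cher*, which encodes filamin, had a log2 fold change of 0.092 ± 0.15 (adjusted p = 0.688).

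*Cenp-C*, the link to the kinetochore, had 951.7, 787.9 and 1108 normalized counts in HP1-KD libraries, against 1207, 1023, 524.7 and 1056 in control libraries. The means were nearly equal, at 949.3 ± 160.2 in HP1-KD embryos (SD, n = 3) and 952.9 ± 296.5 in control embryos (SD, n = 4). The log2 fold change of −0.0057 ± 0.27 (SE, adjusted p = 0.99, edgeR) changed sign in 9 of 20 alternatives. Control library 3 was the lowest of all 7, and without it the value was −0.22.

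In the Mis12 complex, which ties the KMN network to the inner kinetochore, the 2 genes behaved unlike each other in their spread. *Mis12* was the least abundant of the 8 genes, with 8.89, 10.6 and 16.5 normalized counts in HP1-KD libraries, against 10.1, 9.14, 30.9 and 13 in control libraries. Behind these stand 4.5 to 8.5 deposited counts in HP1-KD libraries and 10.5 to 50.5 in control libraries. Control library 3 was the highest, and the groups overlapped. Its log2 fold change was −0.42 ± 0.55 (SE, adjusted p = 0.624, edgeR), and it was 0.14 without control library 3. Its coefficient of variation was 33.4% in HP1-KD libraries and 64.9% in control libraries.

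*Kmn1*, the fly counterpart of the Mis12 complex subunit Nsl1, had 131.2, 141.7 and 103.4 normalized counts in HP1-KD libraries, against 190.2, 181.2, 161.5 and 213.9 in control libraries. Every HP1-KD library lay below every control library. The means were 125.4 ± 19.8 in HP1-KD embryos (SD, n = 3) and 186.7 ± 21.7 in control embryos (SD, n = 4). The log2 fold change of −0.57 ± 0.18 (SE) had an adjusted p of 0.0912 in edgeR's quasi-likelihood test and did not pass. It passed in DESeq2's Wald test (adjusted p = 0.0339), which called 18.6% of all genes, and without control library 3 (−0.64, adjusted p = 0.0435), when edgeR called 15.8%. *CG11699*, which shares exon bases with *Kmn1* on the other strand, had a log2 fold change of −0.20 ± 0.35 (adjusted p = 0.724).

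*Spc105R*, the fly KNL1 and the platform on which spindle checkpoint proteins gather, had 658.2, 561.5 and 599.6 normalized counts in HP1-KD libraries, against 798.9, 641.2, 394.8 and 764.9 in control libraries. The HP1-KD values fell within the control range, with a coefficient of variation of 8.03%, against 28.2% in control libraries. Its log2 fold change was −0.10 ± 0.24 (SE, adjusted p = 0.793, edgeR).

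The Ndc80 complex binds the microtubule directly. *Ndc80* had 71.2, 143 and 113.7 normalized counts in HP1-KD libraries, against 49.3, 88.3, 186.9 and 74.2 in control libraries. Its control libraries spread 3.79-fold, the widest of the 8 genes, and enclosed all HP1-KD values. *Ndc80* had a log2 fold change of 0.14 ± 0.46 (SE, adjusted p = 0.857, edgeR), which was 0.63 without control library 3 and −0.105 without HP1-KD library 2.

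*Nuf2*, the partner with which Ndc80 forms the head of the complex, fell in HP1-KD embryos. It had 426.9, 394.6 and 341.2 normalized counts in HP1-KD libraries, against 517.2, 662.5, 602.1 and 644.6 in control libraries. The highest HP1-KD library was below the lowest control library, and the coefficient of variation was 11.2% in HP1-KD libraries and 10.7% in control libraries, where it was the lowest of the 8 genes. The means were 387.6 ± 43.3 in HP1-KD embryos (SD, n = 3) and 606.6 ± 64.8 in control embryos (SD, n = 4), so that HP1-KD embryos held 63.9% of the control level. This is a log2 fold change of −0.65 ± 0.14 (SE, adjusted p = 0.0322, edgeR).

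The call on *Nuf2* depended on the libraries. Its log2 fold change stayed between −0.56 and −0.72 when any 1 library was left out. The adjusted p of edgeR's test was then 0.0874, 0.103 and 0.132 without HP1-KD libraries 1, 2 and 3, and 0.0761 and 0.101 without control libraries 2 and 4, which ended the call. Without control library 1 it was 0.0215, and without control library 3 it was 0.0186. HP1-KD library 1, with its 316 CPM of yolk protein genes, was the highest HP1-KD library for *Nuf2*, and the fold change without it was −0.70. With HP1-KD libraries 1 and 3 both left out, those with the most ribosomal RNA, it was −0.60 (adjusted p = 0.604). *Sem1*, which overlaps *Nuf2* by 37 nt, had a log2 fold change of 0.14 ± 0.28 (adjusted p = 0.76). The part of ribosomal RNA, marker genes or the strand of counting in the result was not tested further.

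**Figure D2:**
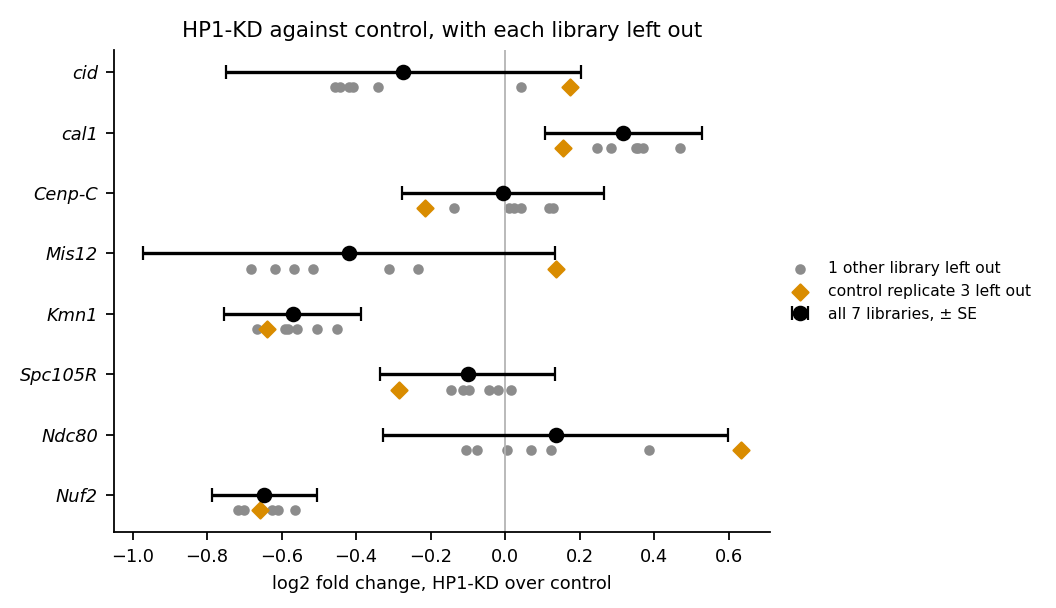
Log2 fold change of HP1-KD over control (horizontal axis) for the 8 centromere and kinetochore genes, from edgeR's quasi-likelihood test in black with bars of 1 SE, with the values after leaving out 1 library in grey and after leaving out control library 3 as orange diamonds. *Nuf2* at −0.65 is the gene past an adjusted p of 0.05, *Kmn1* at −0.57 follows it, and *Cenp-C* sits at −0.0057.

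Levels can be compared between genes once counts are divided by exon length. On the scale of CPM per kb of exon, *Nuf2* stood at 20.9 ± 2.33 in HP1-KD embryos (SD, n = 3) and 32.6 ± 3.49 in control embryos (SD, n = 4), and *cal1* at 31.9 ± 2.6 in HP1-KD embryos and 25.7 ± 6.86 in control embryos. These levels depend on how libraries are scaled, since relative to counts outside ribosomal RNA genes the control level was 64.9 for *Nuf2* and 50.9 for *cal1*. The order of genes within a library does not. These 2 genes exchanged places, since *Nuf2* was above *cal1* in 0 of 3 HP1-KD libraries and in 3 of 4 control libraries. *Cenp-C* followed with 14.1 ± 2.37 CPM per kb in HP1-KD embryos and 14.1 ± 4.39 in control embryos. *Kmn1* stood at 8.69 ± 1.37 in HP1-KD embryos and 12.9 ± 1.51 in control embryos, and *Spc105R* at 6.79 ± 0.546 in HP1-KD embryos and 7.28 ± 2.05 in control embryos. The bottom of the order was held by *cid* (2.88 ± 1.18 in HP1-KD embryos, 3.49 ± 1.89 in control embryos), *Ndc80* (3.45 ± 1.14 in HP1-KD embryos, 3.14 ± 1.9 in control embryos) and *Mis12* (0.993 ± 0.332 in HP1-KD embryos, 1.3 ± 0.847 in control embryos).

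Neighbours in that order were not all distinct. In control embryos *cal1* exceeded *Cenp-C* in 4 of 4 libraries by a ratio of means of 1.82, *Kmn1* exceeded *Spc105R* in 4 of 4, and *Ndc80* exceeded *Mis12* in 4 of 4. *Nuf2* and *cal1*, *Cenp-C* and *Kmn1*, and *Spc105R* and *cid* each changed places in 1 of 4 control libraries. *cid* was above *Ndc80* in 1 of 3 HP1-KD libraries and in 4 of 4 control libraries, by a ratio of control means of 1.11, and their SDs overlapped. Among 7427 protein-coding genes tested, the level in control embryos exceeded 82.4% of genes for *Nuf2*, 76.8% for *cal1* and 13.7% for *Mis12*. The histone that marks the centromere, *cid*, stood above 27.7% of genes.

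**Figure D3:**
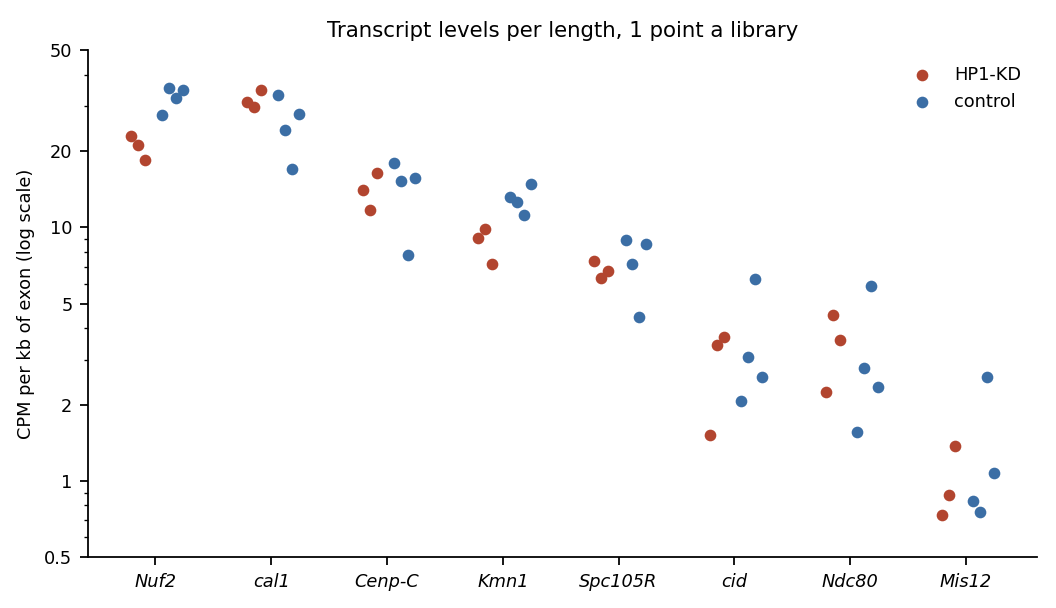
Level of the 8 genes in CPM per kb of exon (log axis), 1 point a library, with HP1-KD libraries in red to the left and control libraries in blue to the right. Control means run from 1.3 for *Mis12* to 32.6 for *Nuf2*, and *cal1* is the highest gene in HP1-KD embryos.

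Subunits of 1 complex can be compared within a library by the log2 ratio of their counts, into which no library scaling enters. A pseudocount of 0.5 is added to each count, which weighs more where counts are few, as for *Mis12*. For the pair of the Ndc80 complex, *Ndc80* over *Nuf2*, the ratio was −2.59, −1.46 and −1.58 in HP1-KD libraries, against −3.38, −2.9, −1.68 and −3.11 in control libraries. The difference of 0.89 had p = 0.114 in a two-sided exact permutation test over the 35 assignments of 3 and 4 libraries. Without control library 3, which alone lay within the HP1-KD range, the difference was 1.25. For the Mis12 complex, *Mis12* over *Kmn1* averaged −3.27 ± 0.53 in HP1-KD libraries and −3.68 ± 0.881 in control libraries, a difference of 0.41 (exact permutation p = 0.4). That difference was 0.85 without control library 3 and 0.10 without HP1-KD library 3. The 2 genes that were lower in every HP1-KD library kept a like ratio: *Kmn1* over *Nuf2* was −1.63 ± 0.134 in HP1-KD libraries and −1.7 ± 0.222 in control libraries, a difference of 0.072 (exact permutation p = 0.629). This pair was chosen after its values were seen.

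At the centromere, *cal1* over *Cenp-C* averaged 0.815 ± 0.137 in HP1-KD libraries and 0.508 ± 0.189 in control libraries, a difference of 0.31 (exact permutation p = 0.114). *cid* over *cal1*, the histone against its chaperone, averaged −5.35 ± 0.666 in HP1-KD libraries and −4.79 ± 1.09 in control libraries, a difference of −0.57 (exact permutation p = 0.514). Without control library 3 it was −0.063, and without HP1-KD library 1 it was −0.18. The 35 assignments allow no p below 0.0571, so no ratio could pass 0.05. Of 28 pairs, 4 stood at that smallest p, and their adjusted p was 0.4. They were singled out after their values were seen. In 3 of them *cal1* was the numerator. *cal1* over *Nuf2* averaged 2.1 ± 0.266 in HP1-KD libraries and 1.1 ± 0.499 in control libraries, *cal1* over *Kmn1* 3.72 ± 0.35 in HP1-KD libraries and 2.8 ± 0.299 in control libraries, and *cal1* over *Spc105R* 1.45 ± 0.143 in HP1-KD libraries and 1.04 ± 0.111 in control libraries. In the fourth pair *cid* over *Ndc80* averaged −1.38 ± 0.301 in HP1-KD libraries and −0.918 ± 0.164 in control libraries.

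Within the control group, 1 library set much of the spread of these genes. In control library 3, *Mis12* was 2.89-fold, *Ndc80* 2.65-fold and *cid* 2.44-fold the mean of the other control libraries. *Cenp-C* was 0.479-fold, *Spc105R* 0.537-fold and *cal1* 0.597-fold, while *Nuf2* (0.99-fold) and *Kmn1* (0.828-fold) stayed near it. Such distances are common in that library, where 6.12% of all genes tested were as high as *Mis12* or higher and 9.28% as low as *Cenp-C* or lower. The 590 CPM of maternally supplied genes in the same library stand beside these values, and the part of staging in them was not tested. Without control library 3, 2 of the 8 genes passed the test, *Nuf2* and *Kmn1*, as did 15.8% of all genes, and the median log2 fold change of the 8 was −0.04.

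**Figure D4:**
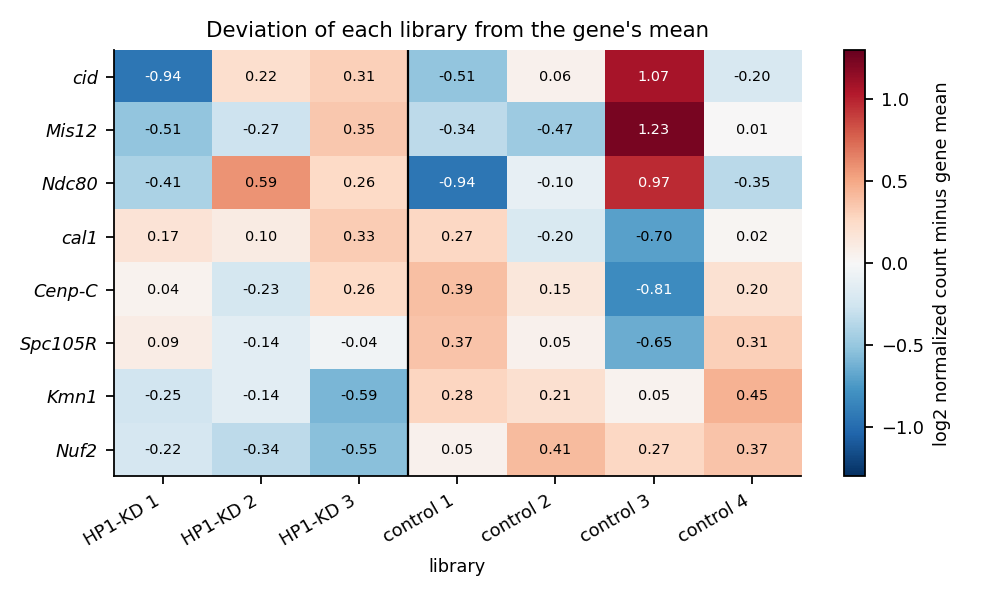
Heat map of the log2 normalized count of each of the 8 genes in each library (HP1-KD libraries left, control libraries right), centred on the gene's mean over the 7 libraries, with the value printed in each cell. The column of control library 3 holds the highest values, for *cid*, *Mis12* and *Ndc80*, beside negative values for *cal1*, *Cenp-C* and *Spc105R*.

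The wider machinery was read from 35 genes in 6 lists, all of which were tested. Of these, edgeR called 4 lower and 0 higher in HP1-KD embryos, where 4.9% of all genes tested were called lower. The lists contain *Su(var)2-5*, the target of the hairpin. It is 1 of these 4 genes, and it is also in the counts of calls and of lower genes that follow. At an unadjusted p under 0.05 in the same test, 10 were lower, against 15.3% of all genes, and 2 were higher, against 13.5%. limma-voom called 4 of the 35, against 6.99% of all genes, and DESeq2 called 10, against 18.6%. The median log2 fold change of the 35 genes was −0.13. HP1-KD libraries lay below all control libraries for 10 of the 35, against 15.1% of all genes, and above them for 4, against 15.2%.

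Of the other KMN subunits, *Kmn2*, the fly Spc24 of the Ndc80 complex, was the 1 of 4 that passed, against 8.59% of all genes tested. It had 133.4, 111.2 and 103.4 normalized counts in HP1-KD libraries, against 202.2, 211.7, 230.2 and 239.1 in control libraries. The groups lay far apart, and HP1-KD embryos held 52.5% of the control level, with a log2 fold change of −0.93 ± 0.16 (SE, adjusted p = 0.0164, edgeR). Over 55.7% of its exon length, *Kmn2* lies opposite exons of *PIG-H*, whose log2 fold change was 0.015 ± 0.19 (adjusted p = 0.962). Without HP1-KD libraries 2 or 3 the adjusted p of *Kmn2* was 0.0745 and 0.073, and without control library 4 it was 0.0654. *Spc25*, the fourth subunit of the Ndc80 complex, had 555.1 ± 54.5 normalized counts in HP1-KD embryos and 592.7 ± 91.3 in control embryos, at a log2 fold change of −0.095. *Nnf1a* and *Nnf1b*, alternative subunits of the Mis12 complex, stood at 0.33 and 0.57 (adjusted p = 0.369 and 0.191). The median log2 fold change of the list was 0.119.

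In the chromosomal passenger complex, the Aurora B kinase module that corrects attachments, 0 of 4 genes passed in edgeR and in limma-voom. DESeq2 called 1, 1 was lower at an unadjusted p under 0.05, and the list's median log2 fold change was −0.15. Across all genes tested, edgeR called 8.59%, limma-voom 6.99% and DESeq2 18.6%. At an unadjusted p under 0.05 in edgeR's test, 15.3% of all genes were lower and 13.5% higher. The RZZ complex and Spindly bring dynein to the kinetochore, and the motors listed with them are CENP-E-type kinesins. In this list 0 of 6 genes passed in edgeR and limma-voom. DESeq2 called 1, 2 were higher at an unadjusted p under 0.05, and the list's median was 0.36. For the spindle checkpoint, which delays anaphase until chromosomes are attached, 0 of 6 passed in edgeR and limma-voom. DESeq2 called 1, 2 were lower at an unadjusted p under 0.05, and the median was −0.183.

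In the list of centromere chromatin and cohesion, edgeR called 2 of 8 genes lower, against 4.9% of all genes tested. limma-voom called 2, against 6.99%, and DESeq2 3, against 18.6%. At an unadjusted p under 0.05 in edgeR's test 3 were lower, against 15.3%, and the list's median log2 fold change was −0.199. Of the 2 that edgeR called, 1 was the targeted *Su(var)2-5*, which the list contains. The other was *Caf1-55*, a histone chaperone shared by several chromatin complexes, with 3340 ± 200.2 normalized counts in HP1-KD embryos (SD, n = 3) and 4335 ± 213.9 in control embryos (SD, n = 4). Its log2 fold change of −0.38 ± 0.094 (SE, adjusted p = 0.0479, edgeR) lost the call in 10 of 20 alternatives, among them those without HP1-KD libraries 1, 2 or 3 (adjusted p = 0.13, 0.125 and 0.162) and without control libraries 2 or 4 (0.0861 and 0.135).

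In the list of licensing and mitotic exit, 1 of 7 genes, *fzy*, passed in edgeR, against 8.59% of all genes tested. limma-voom called 1, against 6.99%, and DESeq2 3, against 18.6%. At an unadjusted p under 0.05 in edgeR's test 3 were lower, against 15.3%, and the list's median log2 fold change was −0.183. *fzy*, the fly Cdc20 that activates the anaphase-promoting complex, had 2044, 2471 and 2229 normalized counts in HP1-KD libraries, against 3218, 3207, 3730 and 3346 in control libraries. No HP1-KD library reached the control range, and the log2 fold change was −0.59 ± 0.11 (SE, adjusted p = 0.0192, edgeR). It lost the call without HP1-KD library 1 (adjusted p = 0.0827), HP1-KD library 3 (0.0835) or control library 4 (0.0659).

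**Figure D5:**
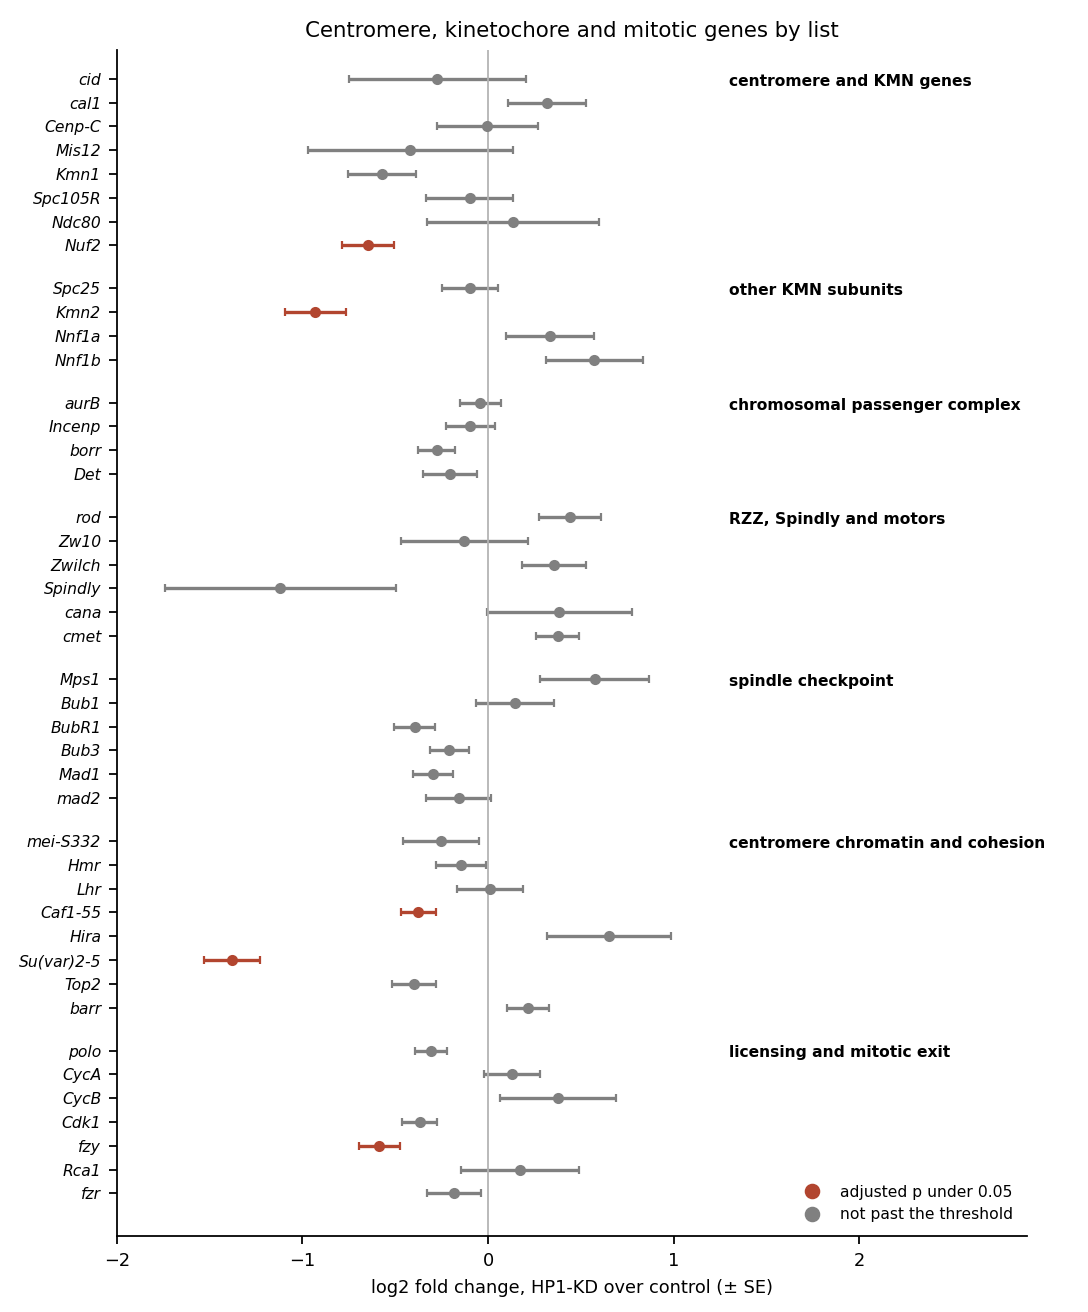
Log2 fold change of HP1-KD over control (edgeR, bars of 1 SE) for the 8 centromere and KMN genes and for 35 further kinetochore and mitotic genes grouped by list, with genes past an adjusted p of 0.05 marked. The marked genes are *Nuf2*, *Kmn2*, *Caf1-55*, *Su(var)2-5* and *fzy*, all below 0.

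The mean profile of the 8 genes over the 7 libraries was compared with that of 6426 genes with a mean of at least 50 normalized counts, as the root mean square distance of centred log2 values. The nearest were 3 precursor genes of *mod(mdg4)*, *pre-mod(mdg4)-E* (0.0474), *pre-mod(mdg4)-C* and *pre-mod(mdg4)-AB* (0.0482 each), whose counts were almost the same as each other. *dock*, which encodes an adaptor protein, and *Lpt*, which encodes part of a histone methyltransferase complex, followed at 0.0589 each. This likeness is a description over 7 libraries, and the mean profile hides the opposite movements within the 8 genes.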

How the data were processed

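RNA-seq of stage 5 embryos gave 1 table of 7 libraries, 3 HP1-KD and 4 control. As deposited, the values are estimated counts for FlyBase genes, not normalized, and come in multiples of 0.5. The submitters' processing notes name STAR and dm6. The counting program, strand setting, annotation and versions are not given in the sources used here. Libraries came from a TruSeq Stranded Total RNA kit. Library totals were 8678092 to 16983585.5 counts. Intervals and the floor of 3 counts cover counting error only.

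Positions, biotypes and exon lengths came from Ensembl release 115 in dm6 coordinates, which held 17561 of 17699 identifiers (99.22%). Counts were rounded, filtered with filterByExpr of edgeR 4.0.16 (8008 genes left), scaled by TMM and compared with the quasi-likelihood F-test (R 4.3.3) in a model of condition alone. The SE is the size of the log2 fold change divided by the square root of F. Genes with a Benjamini-Hochberg adjusted p under 0.05 were called. Normalized counts are counts divided by the effective library size and multiplied by its mean. Log2 ratios of the deposited counts, not rounded, used a pseudocount of 0.5 and exact permutation tests in scipy 1.17.1 under Python 3.11.15. The fit was tested on simulated data.

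The 8 genes and the lists were chosen with earlier results of these data known. Besides the 8 genes, the text names *Su(var)2-5*, listed genes with an adjusted p under 0.05, the 5 genes nearest in profile and genes whose exons overlap, and says where others were chosen after their values were seen. *Spc25*, *Nnf1a* and *Nnf1b*, and the yolk protein genes, were also chosen after their values were seen. Alternatives were other scalings, filters and thresholds, protein-coding genes only, ribosomal RNA genes left out, counts not rounded, a robust fit, a replicate block, DESeq2 1.42.0, voom of limma 3.58.1 and each library left out. No sequences, repeats, Hi-C, ChIP-seq or imaging were used here.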

Additional observations from a re-analysis of the deposited data

Results flagged for a closer look

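In 27 sets of 4 control values, a test for a single distant library (Dixon's, at the 95% level) was applied, and about 1 in 20 such sets passes by chance. It was met for 2. The log2 ratio of *Mis12* over *Kmn1* was −2.36 in control library 3, against −4.11, −4.19 and −4.05 in the other control libraries, with a gap of 0.92 of the range. The log2 ratio of *Spc105R* over *Mis12* was 3.65 in control library 3, against 6.17, 6.02 and 5.88 in the others, with a gap of 0.885 of the range. Both contain *Mis12*, which had 50.5 deposited counts in control library 3 and 10.5 to 17.5 in the others, so they are not independent.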

How the results depend on the processing

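Of 20 alternative fits, *Nuf2* kept its call in 13, *Kmn2* in 15, *fzy* in 14, *Caf1-55* in 10 and *Su(var)2-5* in 19, all with a negative fold change throughout. The 688 genes called became 1095 with raw library totals, 1488 with DESeq2, 1435 at an adjusted p under 0.1 and 411 where a log2 fold change of 1 or more in size was also required. Of the 8 genes, DESeq2 and the threshold of 0.1 called 2 each and the fold threshold 0. Of the 35 listed genes, these called 10, 9 and 1, and 7 were called with ribosomal RNA genes left out. Leaving out 1 library gave 181 to 1212 genes called (247, 231 and 181 without HP1-KD libraries 1, 2 and 3, and 349, 1212 and 207 without control libraries 2, 3 and 4), 0 to 2 of the 8 genes and 1 to 7 of the 35. With HP1-KD libraries 1 and 3 both left out, a choice made after seeing the data, 36 genes were called, 0 of the 8 and 0 of the 35, in a fit with 1 HP1-KD library that is assumed to vary like the controls.

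Among the genes and ratios that did not pass, several changed sign. *Cenp-C* was 0.0021 with RLE factors, 0.0023 with DESeq2, 0.057 with voom and −0.22 to 0.13 with 1 library left out. Raw library totals gave −0.80 for *cal1* and −0.89 for *Ndc80*. With 1 library left out, *Ndc80* ranged from −0.105 to 0.63, *Spc105R* from −0.29 to 0.015, *cid* from −0.46 to 0.17, *Mis12* from −0.68 to 0.14, and the differences in log2 ratio from −0.59 to 0.33 (*cid* over *Cenp-C*), −0.88 to 0.092 (*Spc105R* over *Ndc80*) and −0.48 to 0.36 (*Spc105R* over *Mis12*, also −0.25 with a pseudocount of 5). Without a change of sign, the difference ranged from −0.90 to −0.063 for *cid* over *cal1* and from 0.10 to 0.85 for *Mis12* over *Kmn1*, which was 0.71 with a pseudocount of 5. Control levels per kb, from 1.3 (*Mis12*) to 32.6 (*Nuf2*), were 2.62 to 64.9 relative to counts outside ribosomal RNA genes. *Mis12* had no value when 10 counts were required in every library. The causes were not tested.

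Replicate numbers 1 to 3 are shared between the groups, with correlations of deviations of 0.408, −0.126 and 0.0573 between same-numbered libraries. Correlations between unlike numbers ran from −0.406 to 0.313. The libraries are too few to tell from these values whether a shared number marks a shared collection. They were not treated as paired in the main fit. A replicate block gave 96 genes called, 0 of the 8 and 1 of the 35, with *Cenp-C* at 0.11, *Spc105R* at 0.041 and *Nuf2* at −0.62 (adjusted p = 0.202). Replicate number 4 occurs in the control group alone, so control library 4 adds nothing to the comparison in that fit.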
